A study of Mus musculus with 2 samples.

Results

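Lcn2, which encodes neutrophil gelatinase-associated lipocalin (NGAL), was read together with its receptor gene, a gene proposed to supply its siderophore, and genes of iron storage, transport and heme breakdown. The 10 genes were chosen by name: Lcn2, Slc22a17, Bdh2, Fth1, Ftl1, Slc11a2, Slc40a1, Cp, Hmox1 and Hamp. Of these 10 genes, 9 were found among the 20002 genes with values, and Hamp was not analysed here. The data were poly(A) RNA-seq of mouse kidney, with 1 library for control mice and 1 for mice called Reg-2 CKO, so the differences below have no replicate check. The CKO mice, named by their labels as a conditional knockout of the proximal tubule, received AAV9 carrying shRNA against Regnase-2 through the tail vein, so the model is a knockdown by a virus and not a deleted allele. The control is given in the study's methods as an empty AAV9 vector in one place and as control shRNA in another. Injection was at 11 weeks of age, and the age at analysis is given as 14 weeks for the sequencing and as 16 weeks for the vector experiment. The RNA came from the left kidney, and the sources used here do not say whether 1 mouse or several gave each library. Control and CKO below stand for these libraries as they are labelled.

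NGAL is a small secreted protein of the lipocalin family that binds iron through siderophores and starves bacteria of it, and injured kidney tubules release it. Filtered iron that is bound to transferrin or NGAL is taken back by the proximal tubule through megalin and cubilin, and further along the nephron through other receptors, among them the NGAL receptor that Slc22a17 encodes. Inside a cell, divalent metal transporter 1 moves iron into the cytosol, ferritin stores it, ferroportin exports it, ferroxidases such as ceruloplasmin oxidize it for binding to transferrin, and heme oxygenase frees it from heme.

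The gene that the shRNA targets was read first. Zc3h12b, the Regnase-2 gene, had 47 reads in Control against 59 in CKO. Its log2 ratio of CKO to Control was -0.25 with a 95% interval from -0.83 to 0.33, so a difference was not detectable at this depth, and the sign turned with equalized totals (0.16). The target mRNA therefore gave no check of the labels in whole kidney. The study reports immunostaining with less Regnase-2 in proximal tubules and more NGAL in kidneys of CKO mice. Lcn2 reads, given below, ran in the direction of that NGAL staining. The study itself reports higher Lcn2 from its RNA-seq of CKO mice, so this direction is not a separate observation. Reads here are the deposited values less a constant, 34 in Control and 50 in CKO, which is 1 under the lowest value of each column. That the values are reads plus a constant is an inference. The libraries then held 38851231 and 43588721 reads. For scaling, the CKO reads were reduced by a factor of 0.667, the median gene ratio, so called because it is the median of Control reads over CKO reads across genes. Log2 ratios were taken after 1 was added to both numbers. Where the direction of a log2 ratio given here turned under another setting, such a value is given beside it, either with equalized totals, in which the sums of reads set the factor, or with the unadjusted columns, from which nothing was subtracted and which were not scaled. Intervals of ratios are exact 95% Clopper-Pearson intervals, made from the CKO share of the summed reads with nothing added. They cover counting error only, since reads without molecular identifiers are not independent molecules.

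In CKO, Lcn2 and Cp, the ceruloplasmin gene, stood 2-fold or more above Control, and none of the 9 genes stood 2-fold or more below it. This was 2 of 9 genes higher and 0 of 9 lower. Of the 17469 genes that reached 10 scaled reads in either library, 13.4% were 2-fold or more higher and 5.35% were 2-fold or more lower. By any amount, 3 of 9 genes were higher, with Slc40a1 as the other one, against 51.5% of the 17469, and the remaining 6 were lower under this scaling. With equalized totals 5 of 9 were higher, against 79.4%, and with the unadjusted columns 7 of 9, against 90.3%. The median log2 ratio of the 9 genes was -0.29, against 0.022 for all 17469 genes. The direction of small differences depended on the scaling. With equalized totals, which set the median of all genes at 0.44, the median of the 9 genes was 0.12, and with the unadjusted columns, where all genes had a median of 0.57, it was 0.29. The 6 lower genes were below the median of all genes in each of the 11 settings examined, and Lcn2, Cp and Slc40a1 were above it in each of them. In bulk RNA of a whole kidney, fewer cells of a type and less RNA per cell cannot be told apart.

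**Figure D1:**
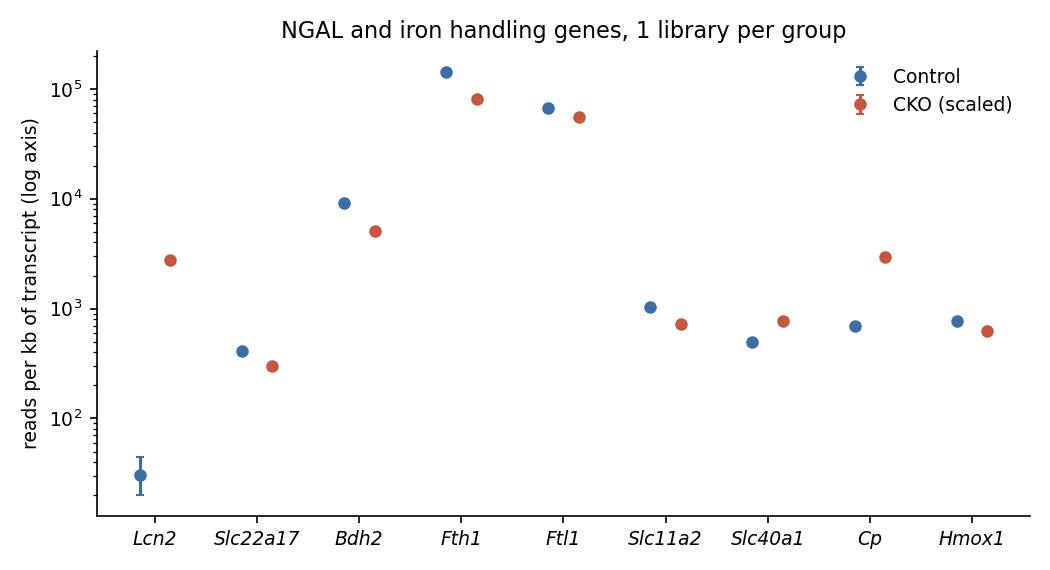
Reads per kb of transcript (log axis) of the 9 genes in Control (blue) and in CKO after scaling (red), with exact 95% Poisson intervals that are often smaller than the points. Lcn2 stood at 30.6 in Control and at 2766 in CKO, while the ferritin genes Fth1 and Ftl1 stood above the other genes in both.

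Per kb of the principal transcript, a scale on which genes can be set side by side, the order in Control began with the ferritin genes. Fth1 had 142022 reads per kb, Ftl1 67285 and Bdh2 9050, followed by Slc11a2 at 1028. Hmox1, Cp, Slc40a1 and Slc22a17 lay between 773 and 408, and Lcn2 was the lowest of the 9 at 30.6. No neighbours in this order had overlapping 95% Poisson intervals. In CKO the first 3 places were held by the same genes, with 81512, 54943 and 5074 scaled reads per kb. Cp followed at 2967 and Lcn2 at 2766, so that Lcn2 moved from place 9 to place 5 and Cp from place 6 to place 4. Slc40a1 at 770 and Slc11a2 at 722 were the only neighbours there with overlapping intervals. Slc22a17 took the last place, with 302 scaled reads per kb.

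Lcn2 lies on chromosome 2 from 32384633 to 32388252, on the minus strand, in the GENCODE M21 annotation of GRCm38, and its transcript of 915 bases has 6 exons. It had 28 reads in Control, or 0.721 per 1000000 reads, against 3797 in CKO, or 87.1. The scaled fold was 90.4, with an interval from 62.4 to 136, whose width came from the 28 Control reads. The log2 ratio of 6.45 placed Lcn2 at rank 3 of 17469 genes. It was 5.93 with the unadjusted columns and 5.36 with these columns scaled by their median gene ratio, both under the lower limit of its interval, 5.96. The genes nearest to Lcn2 by this measure, over the 2 libraries, were Gm38421 and Ugt1a2 above it, and Serpina3n, Ccl2 and C3 below it, with log2 ratios from 6.75 to 5.63. This order rested on the constants. With the unadjusted columns Ugt1a2 was at 6.39 and C3 at 6.14, both above Lcn2, while Ccl2 was at 5.07, Gm38421 at 4.46 and Serpina3n at 4.21. Of the 5, C3, which encodes the central complement component, had the most reads, 668 in Control and 49523 in CKO.

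Slc22a17, the receptor gene, lies on chromosome 14 from 54906304 to 54913132. It had 936 reads in Control against 1040 in CKO, or 24.1 and 23.9 per 1000000 reads. With the median gene ratio it was 1.35-fold lower, with an interval from 1.23 to 1.48. Its log2 ratio was -0.43, but -0.014 with equalized totals and 0.17 with the unadjusted columns. So the receptor gene stayed within 2-fold while its ligand gene did not: within a library, which needs no scaling between libraries, there were 0.0299 Lcn2 reads for each Slc22a17 read in Control (95% interval 0.0198 to 0.0435) and 3.65 in CKO (3.41 to 3.91). This ratio depended on the constants, since Lcn2 had few Control reads: its log2 change was 6.93, but 5.79 with the unadjusted columns.

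Other genes encode proteins that bind NGAL. Lrp2, which encodes megalin, had 103389 reads in Control against 82681 in CKO, and its log2 ratio of -0.91 was negative in the other settings as well, with -0.32 as the value nearest to 0. Cubn, for cubilin, had 19097 and 22134 reads (log2 ratio -0.37, or 0.047 with equalized totals). Mmp9, a gelatinase that forms a complex with NGAL, had 9 and 28 reads, and the interval of its log2 ratio of 0.98 reached from -0.072 to 2.32. Over the settings it lay between 0.28, with the unadjusted columns scaled by their median gene ratio, and 1.38, with equalized totals, on both sides of 2-fold. Mc4r, reported as an NGAL receptor in the brain, had 3 and 2 reads, too few for a fold. Of the 5 genes of this list with enough reads, Bdh2 and Slc22a17 among them, 1 was higher and 4 were lower, beside 51.5% and 48.3% of all genes. With equalized totals 2 were higher, beside 79.4%, and with the unadjusted columns 3, beside 90.3%. The median was -0.43, and with the unadjusted columns, where Mc4r also passed the minimum, it was 0.19.

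Bdh2 encodes a cytosolic dehydrogenase that has been proposed to make a mammalian siderophore for NGAL. It lies on chromosome 3 from 135281221 to 135304426. It had 9584 reads in Control against 8060 in CKO. At 1.78-fold lower, with an interval from 1.73 to 1.84, it had the lowest log2 ratio of the 9 genes, -0.83. This ratio was negative in each of the 11 settings and lay between -0.86 and -0.25.

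**Figure D2:**
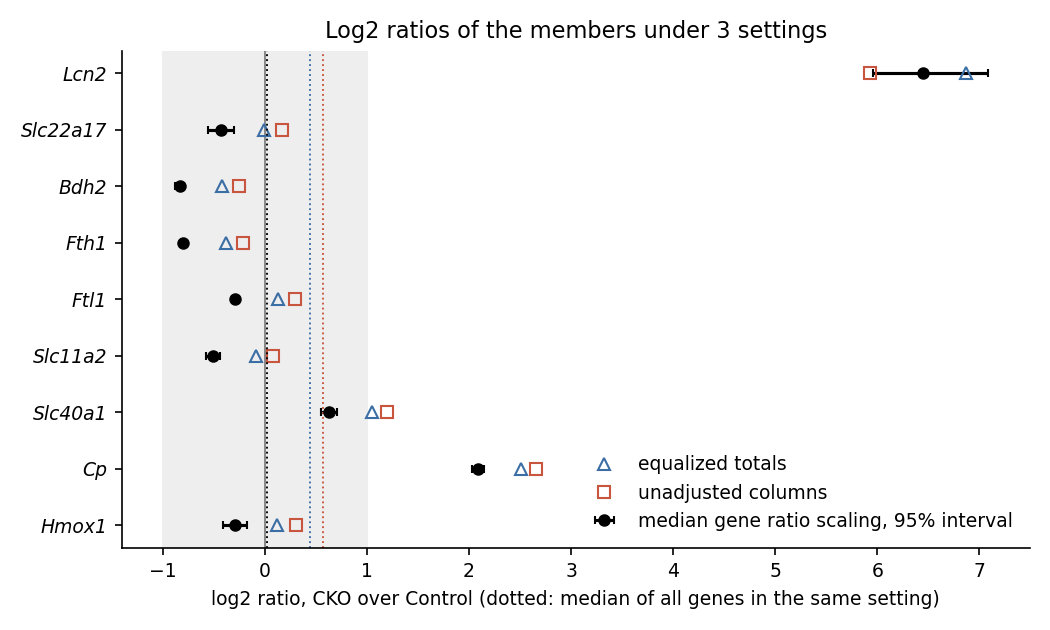
Log2 ratio of CKO over Control for the 9 genes, with the median gene ratio and 95% counting intervals (black), with equalized totals (blue triangles) and with the unadjusted columns (red squares); dotted lines mark the median of all genes in the same setting, and the grey band marks less than 2-fold. Lcn2 and Cp lie right of the band in the 3 settings, Slc40a1 leaves it with equalized totals (1.05) and with the unadjusted columns (1.20), and Slc22a17, Ftl1, Slc11a2 and Hmox1 change sign in at least 1 of them.

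The ferritin genes, the transferrin receptor gene and the ferroportin gene carry iron-responsive elements, short RNA hairpins to which iron regulatory proteins bind when iron is low. In a 5′ UTR this binding blocks translation, and in the 3′ UTR of the transferrin receptor mRNA it slows decay. The elements are shown because control of translation is a step that RNA-seq does not see. They need not be the only control of these mRNAs. The principal transcript of each gene was searched on its own strand for a C, 5 paired bases on either side, with G and T allowed to pair, and a 6-base loop of the letters CAGTGN. Such a match of 17 bases was present in the 5′ UTR of 21 of 21870 genes (0.096%) and in the 3′ UTR of 104 (0.476%). The capitals mark the loop.
Fth1, 5′ UTR, chr19:9982738-9982754, plus strand: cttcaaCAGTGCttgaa
Ftl1, 5′ UTR, chr7:45459785-45459801, minus strand: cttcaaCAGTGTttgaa
Slc40a1, 5′ UTR, chr1:45925471-45925487, minus strand: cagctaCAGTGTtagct
Tfrc, 3′ UTR, chr16:32631225-32631241, plus strand: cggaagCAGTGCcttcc
Tfrc, 3′ UTR, chr16:32631604-32631620, plus strand: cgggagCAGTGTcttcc
Tfrc, 3′ UTR, chr16:32631669-32631685, plus strand: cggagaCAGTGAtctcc
Tfrc, 3′ UTR, chr16:32631716-32631732, plus strand: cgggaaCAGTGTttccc
The transcripts of Lcn2, Slc22a17, Slc11a2, Cp, Hmox1 and Bdh2 that were searched held no match to these letters. A match is a description of the sequence and was not tested for binding.

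Fth1, which encodes the ferritin heavy chain with its ferroxidase center, lies on chromosome 19 from 9980598 to 9985098. It had 131938 reads in Control against 113587 in CKO, the most of the 9 genes in both. It was 1.74-fold lower, with an interval from 1.73 to 1.76 and a log2 ratio of -0.80, and the ratio was negative in each setting, with -0.22 as the value nearest to 0. Ftl1, for the ferritin light chain, lies on chromosome 7 from 45457944 to 45459884 and had 65132 and 79777 reads. Its log2 ratio of -0.29 turned to 0.13 with equalized totals and to 0.29 with the unadjusted columns.

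The ratio of the chains does not depend on the scaling. There were 2.03 Fth1 reads per Ftl1 read in Control (95% interval 2.01 to 2.04) and 1.42 in CKO (1.41 to 1.44), so the heavy chain mRNA was 1.42-fold lower relative to the light chain mRNA. Ferritin has many processed pseudogenes, and reads that match several copies make its values uncertain. Ftl1-ps1, whose transcript holds the same 17 bases as Ftl1, had 2336 and 2879 reads, and Ftl2-ps had 1463 and 1814. Ftl1 had 27.9 reads for each read of Ftl1-ps1 in Control and 27.7 in CKO, with overlapping intervals, and 44.5 and 44.0 for each read of Ftl2-ps. These rows thus followed Ftl1 within counting error, and Ftl1-ps2 had 5 reads in both libraries. The other 10 ferritin-like rows sought were not analysed here.

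**Figure D3:**
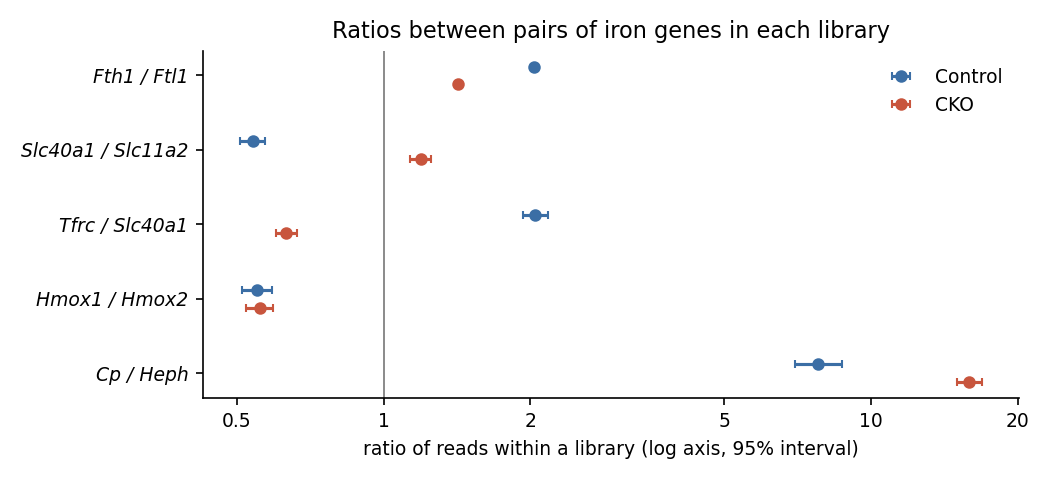
Reads of the first gene per read of the second within each library (log axis) with exact 95% intervals for 5 pairs of iron genes, in Control (blue) and in CKO (red). The intervals of Hmox1 to Hmox2 overlap, while those of the other 4 pairs do not.

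Slc11a2, for divalent metal transporter 1, lies on chromosome 15 from 100387898 to 100425072. It had 3111 reads in Control against 3274 in CKO, or 1.43-fold lower after scaling, with an interval from 1.36 to 1.5. Its log2 ratio of -0.51 became 0.08 with the unadjusted columns. Slc40a1, for ferroportin, the known iron exporter of mammalian cells, lies on chromosome 1 from 45908068 to 45926523. It had 1676 and 3890 reads and was 1.55-fold higher, with an interval from 1.46 to 1.64. Its log2 ratio was 0.63 with the median gene ratio, 1.05 with equalized totals and 1.20 with the unadjusted columns, so that it passed 2-fold only in these alternatives. Within the libraries there were 0.539 reads of the exporter gene for each read of Slc11a2 in Control and 1.19 in CKO, with intervals of 0.507 to 0.572 and 1.13 to 1.25. The balance of reads between these genes was thus 2.21-fold higher on the side of the exporter.

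Cp lies on chromosome 3 from 19957054 to 20009145 and encodes ceruloplasmin, a copper ferroxidase that oxidizes exported iron. It had 2809 reads in Control against 17933 in CKO, or 72.3 and 411 per 1000000 reads. It was 4.26-fold higher, with an interval from 4.09 to 4.43, and its log2 ratio of 2.09 ranked 665 of 17469 and lay between 2.07 and 2.66 over the settings. Heph, for the related ferroxidase hephaestin, had 361 and 1128 reads (log2 ratio 1.06). There were 7.78 Cp reads for each Heph read in Control and 15.9 in CKO, so Cp was 2.04-fold higher relative to Heph. Short stretches of Cp, Slc11a2 and Ftl1 exons are covered by exons of genes on the opposite strand, 108, 402 and 355 bases in the annotation. The kit keeps the strand, but whether counting used it is not stated in the sources used here. Ftl1 exons also share 109 bases with Gm22133, a microRNA gene on the same strand, which strand information cannot separate.

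Tfrc, for transferrin receptor 1, was the lowest of the genes of iron uptake and export. It had 3424 reads in Control against 2454 in CKO, and its log2 ratio was -1.07, with an interval from -1.14 to -0.99. It was less than 2-fold lower with equalized totals (-0.65) and with the unadjusted columns (-0.47). Control had 2.04 Tfrc reads for each Slc40a1 read and CKO 0.631, a ratio 3.24-fold lower that no scaling can move. Of the 15 genes of this list that were analysed, Slc11a2, Slc40a1, Heph and Cp included, 11 were higher and 4 lower, beside 51.5% and 48.3% of all genes, and their median log2 ratio was 0.73 beside 0.022 for all genes. With equalized totals 11 were higher, beside 79.4% of all genes, and with the unadjusted columns 13, beside 90.3%. Of the 15, 6 were 2-fold or more higher, beside 13.4% of all genes, and with equalized totals 10, beside 21.7%. Trf, the transferrin gene, had 377 and 1935 reads (log2 ratio 1.77). Steap1 had 71 and 530 reads and Steap4 had 38 and 286, each with a log2 ratio of 2.30. With the unadjusted columns scaled by their median gene ratio they were at 1.88 and 1.64. Both belong to a family of membrane metalloreductases. Slc11a1, which encodes the iron transporter of macrophage phagosomes, had 45 and 300 reads (log2 ratio 2.13). The other lower genes of the list were Slc39a8, at -0.92, and Slc39a14, at -0.56 but 0.033 with the unadjusted columns, which encode metal importers, and the list median was positive in each of the 11 settings.

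Of 8 genes of iron storage and sensing that were analysed, 7 were lower, beside 48.3% of all genes, but 3 with equalized totals, beside 20.6%, and 2 with the unadjusted columns, beside 9.55%. None reached 2-fold, which 13.4% of all genes did upward and 5.35% downward, and the median of the 8, -0.35, turned to 0.07 with equalized totals. Ncoa4, for the receptor that brings ferritin to autophagy, was the highest of them, with 5375 reads in Control against 8396 in CKO and a log2 ratio of 0.058. Aco1, for iron regulatory protein 1, had 16596 and 14649 reads (log2 ratio -0.76). Ireb2, for iron regulatory protein 2, had 4527 and 5125 reads (log2 ratio -0.41, or 0.013 with equalized totals). There were 3.67 Aco1 reads per Ireb2 read in Control and 2.86 in CKO. Fbxl5, which marks iron regulatory protein 2 for degradation when iron is plentiful, had 2632 and 3459 reads (log2 ratio -0.19, or 0.23 with equalized totals).

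Hmox1, for the inducible heme oxygenase, lies on chromosome 8 from 75093621 to 75100589. It had 1213 reads in Control against 1483 in CKO, or 31.2 and 34.0 per 1000000 reads. With the median gene ratio it was 1.23-fold lower, with an interval from 1.14 to 1.32. Its log2 ratio of -0.29 turned to 0.12 with equalized totals and to 0.30 with the unadjusted columns. Hmox2, for the constitutive heme oxygenase, had 2205 and 2663 reads. There were 0.550 Hmox1 reads per Hmox2 read in Control (0.512 to 0.590) and 0.557 in CKO (0.522 to 0.594). A change between the libraries in this ratio of the inducible to the constitutive gene was not detectable. Of 19 heme genes analysed, 4 were higher and 15 lower, beside 51.5% and 48.3% of all genes. With equalized totals 12 were higher, beside 79.4%, and with the unadjusted columns 16, beside 90.3%. The median of -0.32 became 0.095 with equalized totals. Hp, for haptoglobin, which binds free hemoglobin, was the highest, with 7 and 64 reads (log2 ratio 2.45, but 0.89 with the unadjusted columns scaled by their median gene ratio), and Flvcr1, for a heme exporter, had 439 and 1385 reads (log2 ratio 1.07). Slc46a1, for a transporter of folate and heme, was the lowest at -1.01, and -0.59 with equalized totals.

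Hmox1, Fth1 and Ftl1 are also targets of NRF2, the transcription factor of the oxidative stress response. Of 12 such targets, none reached 2-fold in either direction under the median gene ratio, beside 13.4% of all genes higher and 5.35% lower, but Slc7a11 was at 1.06 with equalized totals. The list had 3 higher and 9 lower genes, but 8 higher with equalized totals, beside 51.5% and 79.4% of all genes, and 9 higher with the unadjusted columns, beside 90.3%. Its median of -0.25 became 0.17 with equalized totals. Osgin1 was the lowest at -0.91, or -0.31 with the unadjusted columns, and Slc7a11, with 14 and 34 reads, the highest at 0.66, where the interval reached from -0.24 to 1.71.

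Hepcidin, the product of Hamp, makes cells withdraw ferroportin. Of 20 gene names sought for hepcidin, its iron sensing and its signals, 13 were analysed. Hamp, Hamp2, Hfe2, Tmprss6 and Erfe were not among them. Of the 13, 11 were higher and 2 lower, or 13 higher with equalized totals, beside 51.5% and 79.4% of all genes higher. Only 2 were 2-fold or more higher, beside 13.4% of all genes, and with equalized totals 4, beside 21.7%. Their median of 0.44 was positive in each setting. Hfe, mutated in hereditary iron overload, had 297 reads in Control against 1033 in CKO and a log2 ratio of 1.21. Id1, a target of bone morphogenetic protein signalling, had 677 and 2181 reads (log2 ratio 1.10). Bmp2 was the lowest, with 42 and 61 reads (log2 ratio -0.045, or 0.36 with equalized totals). Of 10 genes of mitochondrial iron use, 10 were lower under the median gene ratio, beside 48.3% of all genes. With equalized totals 6 were lower, beside 20.6%, and with the unadjusted columns 4, beside 9.55%. Their median of -0.48 was -0.062 with equalized totals and 0.13 with the unadjusted columns. Fdx1, for ferredoxin 1, was the lowest, with 3089 and 2181 reads (log2 ratio -1.09, or -0.67 with equalized totals), and Slc25a37, for mitoferrin 1, was the highest at -0.094, or 0.32 with equalized totals.

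**Figure D4:**
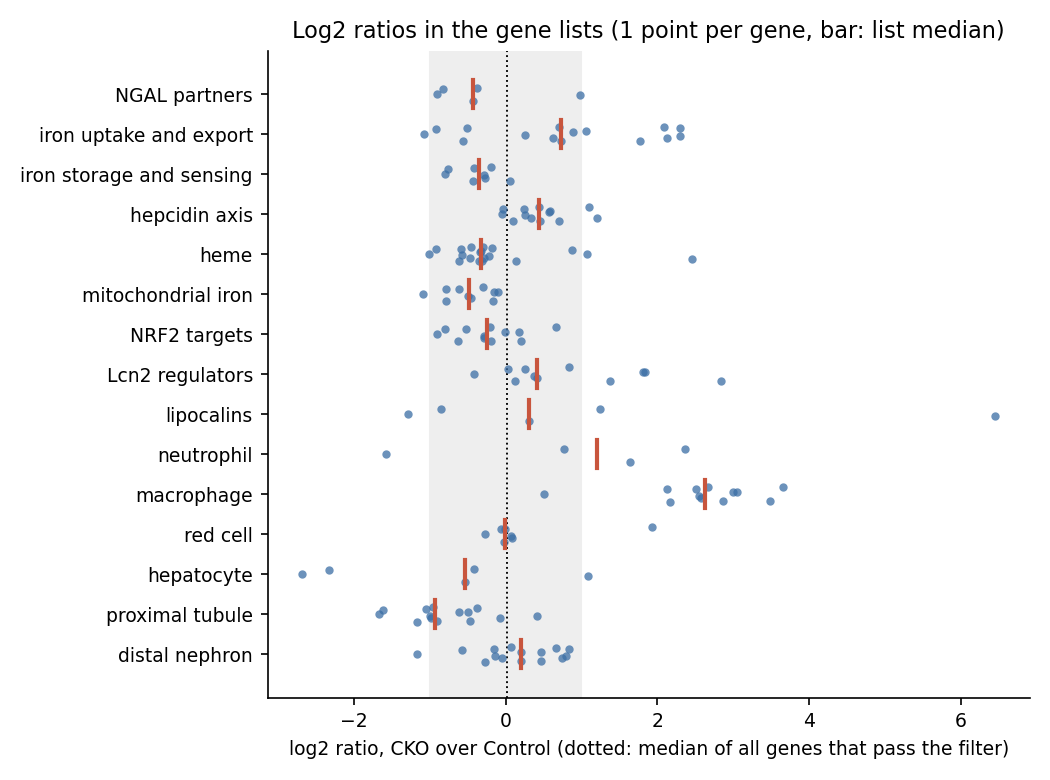
Log2 ratio of CKO over Control for each gene that reached 10 scaled reads (points) in 15 lists, with the list median (red bar), the median of all genes (dotted line at 0.022) and a grey band for less than 2-fold. Lcn2 is the point at 6.45 among the lipocalins. The medians of the iron storage, heme, NRF2 and red cell lists turned positive with equalized totals, and those of the NGAL partner, mitochondrial iron and hepatocyte lists with the unadjusted columns.

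Of 11 genes of the pathways known to induce Lcn2, 10 were higher and 4 were 2-fold or more higher, beside 51.5% and 13.4% of all genes, and with equalized totals 11 and 5, beside 79.4% and 21.7%. Their median was 0.41, beside 0.022 for all genes, and was positive in each setting. Nfkbiz, for the NF-κB cofactor that Lcn2 induction requires in many cells, was the highest, with 181 reads in Control against 1951 in CKO and a log2 ratio of 2.84. Cebpd had 225 and 1208 reads (log2 ratio 1.84), and Bcl3 had 119 and 631 reads (log2 ratio 1.81). Il6ra, for the interleukin 6 receptor, was at 1.38. Stat3 was at 0.41 and Rela at 0.38. Il17ra, for an interleukin 17 receptor chain, was the lowest at -0.41, or 0.011 with equalized totals. Of 5 lipocalins analysed, Lcn2 included, 3 were higher and 2 lower, beside 51.5% and 48.3% of all genes, with a median of 0.31. With equalized totals and with the unadjusted columns 3 were also higher, beside 79.4% and 90.3% of all genes. Ptgds was at 1.24 and C8g, the lowest, at -1.29, or -0.87 with equalized totals and -0.56 with the unadjusted columns. Apom, which had the most reads of the 5 in Control, 2532, was at -0.85.

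NGAL was first found in neutrophils and is also made by macrophages and by tubular cells. Of 15 neutrophil genes sought, 4 were analysed, and together they had 58 reads in Control against 267 in CKO. Csf3r had the most, 22 and 177 reads, with a log2 ratio of 2.37, and S100a9 had 13 and 64 reads and was at 1.64. S100a8 had 7 and 19 reads, and the median of the 4 was 1.21. With the unadjusted columns scaled by their median gene ratio Csf3r was at 1.43, S100a9 at 0.69 and the median at 0.43. Ltf, for lactoferrin, an iron-binding protein of neutrophil granules, had 16 reads in Control against 7 in CKO. Its log2 ratio of -1.58 turned to 0.19 with the unadjusted columns. The part of neutrophils in the 3797 Lcn2 reads of CKO was not tested, and the other neutrophil genes sought were not analysed here. Of 15 macrophage genes sought, 12 were analysed, and Cd163, Timd4 and Vsig4 were not. The 12 genes were all higher, and 11 were 2-fold or more higher, beside 51.5% and 13.4% of all genes, with a median of 2.63. Their sum was 4295 reads in Control against 29583 in CKO. Csf1r had the most reads of the list in Control, 2244, and Lyz2 in CKO, 9836, against 518 in Control. Lyz2 had the highest log2 ratio, 3.66. Itgam, Fcgr1, C1qa, C1qb, C1qc, Cd14, Adgre1, Mrc1, Cd68 and Ptprc lay between 3.48 and 2.13, and Csf1r was the lowest at 0.51, or 1.09 with the unadjusted columns. Fcgr1, at 3.48, was at 2.39 with the unadjusted columns scaled by their median gene ratio. The part of these cells in the values of Lcn2, Cp, Slc11a1 and Slc40a1 was not tested.

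Genes of the proximal tubule, the labelled site of the knockdown, were lower in 13 of 14 and 2-fold or more lower in 4, beside 48.3% and 5.35% of all genes, with a median of -0.93. With equalized totals 11 of 14 were lower, beside 20.6% of all genes, and with the unadjusted columns 9 of 14, beside 9.55%. The median was -0.52 with equalized totals and -0.35 with the unadjusted columns. Their sum was 671831 reads in Control against 535934 in CKO, and the most abundant was Slc34a1, for a phosphate transporter, with 147064 and 98124 reads. The lowest were Slc22a12 at -1.67 and Slc22a6 at -1.62, with Slc34a1 at -1.17 and Miox at -1.05, and Slc5a12 was the highest at 0.41. Slc34a1 and Miox were less than 2-fold lower with equalized totals (-0.75 and -0.63). The 6 lower genes of the 9, Bdh2, Fth1, Slc11a2, Slc22a17, Ftl1 and Hmox1, had log2 ratios from -0.83 to -0.29. These lay between the median of -0.93 here and that of the distal genes given next. Genes of the thick limb, distal tubule and collecting duct had a median of 0.20, with 9 of 15 higher, or 13 with equalized totals, beside 51.5% and 79.4% of all genes. Cldn16 was the highest at 0.83, or 1.25 with equalized totals, and Pvalb the lowest at -1.17, or -0.75 with equalized totals, and Umod, the most abundant, had 90047 and 187056 reads. The part of a changed share of proximal tubule RNA in the lower genes was not tested.

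Blood in the tissue was read from red cell genes, which bear on heme. Of 7 analysed, 3 were higher and 4 lower, beside 51.5% and 48.3% of all genes, but 7 were higher with equalized totals, beside 79.4%, and with the unadjusted columns, beside 90.3%. They had a median of -0.011 that turned to 0.41 with equalized totals. Their sum was 16071 reads in Control against 23637 in CKO, or 15758 after scaling, and Hbb-bs was the most abundant with 6084 and 9054. Epb42, with 14 and 84 reads, was the highest at 1.93, but at 0.89 with the unadjusted columns scaled by their median gene ratio, and Slc4a1, which is also expressed in the collecting duct, the lowest at -0.27, or 0.15 with equalized totals. Ceruloplasmin, transferrin and haptoglobin are best known as liver proteins. Of 5 genes with high expression in the liver, 1 was higher and 4 were lower, or 3 higher and 2 lower with the unadjusted columns, beside 51.5% and 90.3% of all genes higher, with a median of -0.53 that became 0.18 with the unadjusted columns and -1.43 with a minimum of 50 scaled reads. Alb, the albumin gene, had 117 and 121 reads, and Apoa1 had 11 and 12. Serpina1a had 105 and 336 reads (log2 ratio 1.09, or 0.90 with the unadjusted columns scaled by their median gene ratio). Ttr was at -2.33, or -1.68 with the unadjusted columns, and Cyp2e1, which the proximal tubule also expresses, at -2.68, and Cyp2e1 had 95086 of the 98208 Control reads of this list.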

How the data were processed

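Poly(A) RNA of kidney was measured in 2 libraries, 1 for control mice and 1 for mice labelled CKO. The submitters' processing notes and the study's methods name STAR 2.7.3a for alignment to mm10, HTSeq for counting and DESeq2 for normalization by the authors. The deposited values are a score without a standard unit: whole numbers, which the authors call normalized counts, with lowest values of 35 for Control and 51 for CKO. The 10 genes and all lists were chosen with earlier results of these data known. Constants were subtracted, CKO reads were scaled by the median gene ratio, and a gene was kept if it reached 10 scaled reads in either library. The threshold was 2-fold, and no test between groups was possible. A deposited value of a gene with few reads lies close to the constant, so its ratio depends on this step. Genes named were all members, those of each list past 2-fold, its highest and lowest gene, genes with a described role, and the neighbours of Lcn2. Others, among them Slc39a8, Slc39a14, S100a8, Apom, Umod, Hbb-bs, Alb and Apoa1, were named after their values were seen. Alternatives were a pseudocount of 0.1 or 10, a minimum of 0 or 50 scaled reads, a threshold of 1.5-fold or 4-fold, 3 other scalings and other constants. The unsubtracted values scaled by the median gene ratio, and ratios within a library, were chosen after seeing the data. Gene models, coordinates and sequences came from GENCODE M21 (GRCm38, the assembly also called mm10), with 1 principal transcript per gene. The steps were tested on simulated data made as reads plus a constant. That test could not show whether the deposited values have this form. The software was Python 3.11.15 with numpy 2.4.6, pandas 2.3.3, scipy 1.17.1 and matplotlib.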

Additional observations from a re-analysis of the deposited data

How the results depend on the processing

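No paired analysis was possible because there was only 1 library in each group, so differences between mice, kidneys or library preparations cannot be told apart from the effect of the shRNA. The main setting put 2334 genes 2-fold or more above Control and 934 below it, 71.4% of them higher. Equalized totals gave 3870 and 437 (89.9% higher) and the unadjusted columns 3574 and 131 (96.5% higher). The 3870 were counted among the 17682 genes that passed the minimum with equalized totals. Among the 17469 genes used for the shares in the Results, 3784 were higher in that setting. With equalized totals and the unadjusted columns, the median log2 ratio of the 9 genes was 0.12 and 0.29 in place of -0.29, as the shift of all genes to 0.44 and 0.57 brings about. The unsubtracted values scaled by the median gene ratio, a setting chosen after seeing the data, gave 1196 higher and 463 lower genes, since the constants draw ratios of genes with few reads together, and of the named genes Hp, Epb42, Serpina1a, S100a9, Slc46a1 and Ltf were then under 2-fold, while the median of the 4 neutrophil genes went from 1.21 to 0.43. A minimum of 50 scaled reads left 617 lower genes, from fewer genes tested. A threshold of 1.5-fold gave 3801 genes higher and 2423 lower, and 4-fold gave 749 and 166; at 1.5-fold, 2 of the 9 genes, Fth1 and Bdh2, were lower in place of 0, and 3, with Slc40a1, were higher in place of 2. Slc40a1 passed 2-fold under equalized totals and in the unadjusted columns, which made 3 of 9 higher. Ltf turned to 0.19 in the unadjusted columns, where its 16 and 7 reads lie on constants of 34 and 50. Of 933 other alternative values, for 103 results, 730 were counted as unchanged, for single genes because they stayed within their counting interval. A further 202 moved without a change of sign in a gene or list past 2-fold, and 1, that of Ltf, is given above. No counting interval is defined here for a list median. Those counted as unchanged include neutrophil medians of 0.43 and 2.37 and a red cell median that turned from -0.011 to 0.019 with equal upper quartiles. Depth limits Lcn2 in Control (28 reads), Mmp9, Mc4r, Hp and the neutrophil genes.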
